A study of Mus musculus with 15 samples.

Results

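The 10 genes described here encode parts of the Notch pathway: the ligands Dll1, Dll3, Dll4 and Jag1, the receptors Notch1, Notch2 and Notch3, and the target genes Hes1, Hes5 and Hey1. They were taken from the table by their symbols, from a list drawn up with earlier results of these data known, and all 10 were found among the 23244 gene entries of the expression table. Expression was measured by RNA-Seq in mouse optic tissue made by SFEBq culture, in which dissociated embryonic stem cells reaggregate in serum-free medium and form an epithelium. All tissue came from the single stem cell line EB5 Rx::GFP+/-, in which GFP reports the eye field gene Rx, and the labels name no other genetic change. Before reaggregation the stem cells of every group were kept with LIF, blasticidin, the GSK3 inhibitor used again below and a MEK inhibitor, which the labels and the study's methods name differently. GFP+ epithelium was cut out with forceps on Day 10. It was either collected (Day 10 Rx::GFP+) or cultured on in retinal maturation medium and collected on Day 12 or Day 15. The +Fgf groups, labelled neural retina, received 5 ng/mL human recombinant bFgf together with 10% FBS. The +Wnt groups, labelled retinal pigmented epithelium, received CHIR99201, which inhibits GSK3, with 3 μM during the opening 24 h and 1 μM from then on. Each of these 5 groups held 3 biological replicates, 15 libraries in all. The effects of bFgf and of serum cannot be told apart in these groups, and neither can stimulation and time in culture against Day 10.

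Notch signalling passes between touching cells. A ligand of the Delta-like or Jagged family on a cell binds a Notch receptor on its neighbour, the receptor is cleaved, and its intracellular part enters the nucleus and joins the DNA-binding protein RBPJ, which then activates genes of the Hes and Hey families. Hes and Hey proteins are transcriptional repressors. In the developing retina they hold progenitors back from differentiation by repressing proneural genes, while cells that begin to differentiate express Delta-like ligands.

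Libraries held 12556998 to 16175450 recovered reads on genes, and 1 read was worth between 0.0620 and 0.0764 CPM (the name the authors give their TMM-normalized read counts, scaled to library size). Markers of the labelled tissues were read first. The summed level of 10 retinal progenitor markers ran from 4446 to 4813 CPM in the +Fgf libraries and from 691 to 1069.5 CPM in the 6 +Wnt libraries, and the summed level of 10 pigment epithelium markers ran from 5312 to 6871 CPM in Day 15 +Wnt against 238 to 309 CPM in Day 15 +Fgf. Of those 10, Rpe65, a visual cycle enzyme of mature pigment epithelium, was at 0 and Best1 below 1 CPM in all Day 15 +Wnt libraries. Mitf was higher in the unstimulated epithelium of Day 10 (118 to 141 CPM) than in either +Fgf group. Summed levels of 8 neural crest markers ran from 26.4 to 51.9 CPM over all libraries. Among them Ets1 alone measured 27.2 to 36.7 CPM in Day 12 +Fgf, where the sum was 42.0 to 48.4 CPM. Summed levels of 6 pluripotency markers differed between groups, with 45.5 to 59.6 CPM at Day 10. On Day 12 they were 4.28 to 18.4 CPM in +Fgf and 22.6 to 61.0 CPM in +Wnt. On Day 15 they were 1.03 to 18.1 CPM in +Fgf and 11.9 to 59.1 CPM in +Wnt. Neuron markers were read the same way. The sum of 10 postmitotic retinal neuron markers was 344 to 383 CPM at Day 10. On Day 12 it was 382 to 439 CPM in +Fgf and 838 to 1073 CPM in +Wnt. On Day 15 it was 2064 to 2251 CPM in +Fgf and 1556 to 1847 CPM in +Wnt. The 10 were Pou4f2, Isl1, Stmn2, Elavl4, Dcx, Tubb3, Gap43, Sncg, Crx and Otx2. At Day 15, 7 of them were higher in +Fgf and 2 lower, against 38.0% and 30.6% of all tested entries. By staining, the paper found Pou4f2+ ganglion cells after Fgf but not Wnt stimulation. Which cells carried the sum in +Wnt was not tested. Whether each of the 10, Otx2 among them, marks neurons alone in tissue labelled pigment epithelium was not tested either. These are whole pieces of tissue, so for every gene below fewer cells of a type and less RNA per cell cannot be told apart.

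All 10 genes passed the filter on low values (at least 1 CPM in at least 3 libraries), which left 13845 entries for testing. Of the 10, 9 reached 1 CPM in every library and Dll4 in 13 of 15. Differences are given on the scale of log2(CPM + 0.3), with the standard error (SE) of the limma fit over all 15 libraries and with p-values adjusted over all 13845 entries, called at 0.05. This scale understates the change of low genes such as Dll4.

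Between Day 10 and Day 12 +Fgf, 7 of the 10 genes rose, 1 fell (Notch2) and 2 did not pass the test (Dll1 and Dll3), where 27.9% of all tested entries were higher and 27.8% lower. Their median log2 difference was 0.78. Between Day 10 and Day 12 +Wnt, 5 rose and 2 fell (Jag1 and Hes1), against 30.6% and 29.6% of all entries, and none of the 3 receptors passed the test. The median was 0.53. These comparisons share the Day 10 libraries.

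From Day 12 to Day 15 in +Fgf, 6 genes rose and 4 fell (Notch2, Notch3, Jag1 and Hes1), against 27.2% and 29.9% of all entries, with a median log2 difference of 0.99. Over the same days in +Wnt, 3 rose and 4 fell, against 32.5% and 35.5%, with a median of -0.22 and no difference larger than that of Hes1, which fell by 1.10 on the log2 scale. In this last comparison the number called was the least stable: 7 were called with all libraries, and 4 without Day 12 +Wnt replicate 1, without Day 15 +Wnt replicate 1 or without Day 15 +Wnt replicate 2.

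Between stimulations at Day 12, 6 genes were higher in +Fgf and 4 were higher in +Wnt (Notch2, Dll1, Dll3 and Hes5), so all 10 differed, against 26.3% of all entries higher in +Fgf and 25.2% lower, with a median of 0.42. At Day 15, 7 were higher in +Fgf, 2 were lower (Notch2 and Jag1) and Notch3 did not pass the test, against 38.0% and 30.6%, with a median of 1.05. The change from Day 12 to Day 15 itself differed between +Fgf and +Wnt for 9 of the 10 genes, 6 with a higher and 3 with a lower change in +Fgf, where 27.0% and 20.9% of all entries passed that test. Hey1 was the exception (difference of the log2 changes 0.20, 95% interval -0.093 to 0.48, limma adjusted p = 0.252). The medians over all tested entries lay between -0.021 and 0.058 in these 7 comparisons.

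**Figure D1:**
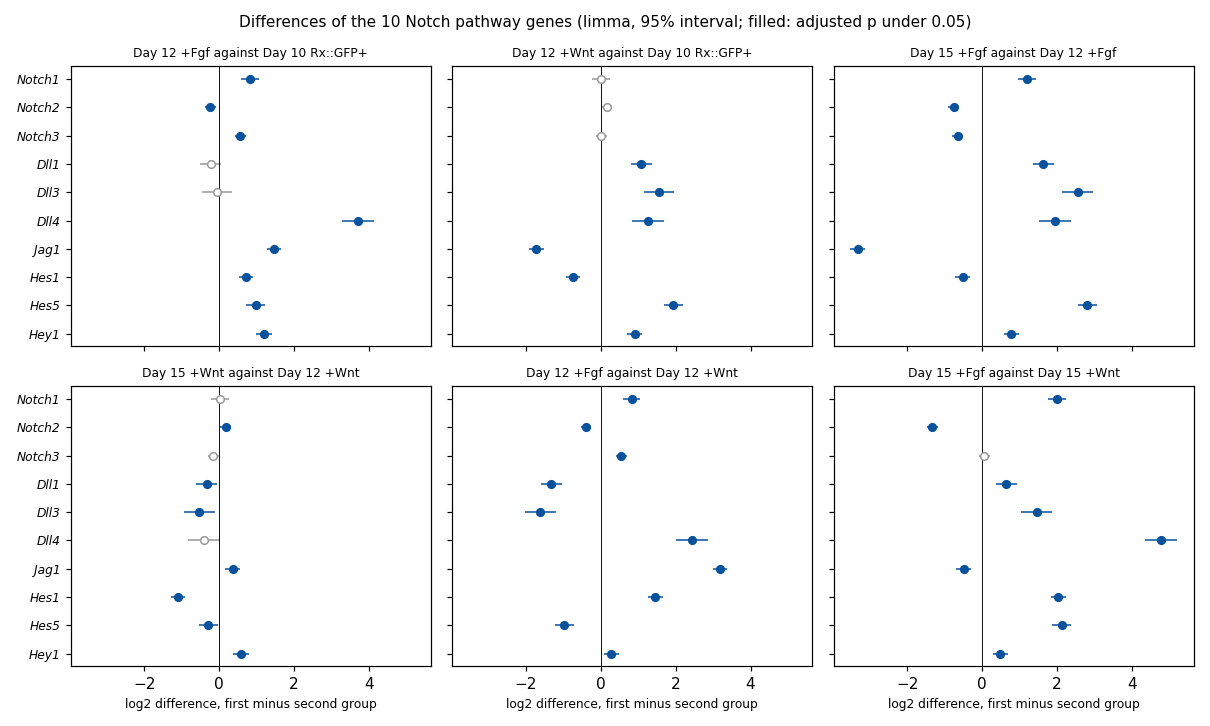
Log2 differences of the 10 Notch pathway genes in the 6 comparisons, first group minus second on the log2(CPM + 0.3) scale (x axis), with 1 gene per row. Points are limma estimates with 95% intervals, filled where the adjusted p is under 0.05. Jag1 lies far to the right at Day 12 (+Fgf against +Wnt, 3.19) and left of 0 at Day 15 (-0.50), and Dll4 lies far to the right on both days (2.43 and 4.77).

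Dll4, a Delta-like ligand known from vascular and early retinal development, had the largest difference of the 4 ligands in 2 of the 6 comparisons between groups. It was barely detected at Day 10, at 0.545, 0.535 and 1.30 CPM (8 to 17 reads). In Day 12 +Fgf it stood at 13.8, 11.1 and 15.0 CPM and in Day 15 +Fgf at 55.7, 48.1 and 51.4 CPM. In +Wnt it measured 1.95, 2.44 and 2.25 CPM on Day 12 and 1.55, 1.57 and 1.68 CPM on Day 15. Every +Fgf library lay above every other library, and the 5 groups followed each other without overlap, with Day 10 the lowest. The gene rose between Day 10 and Day 12 in +Fgf (log2 difference 3.70, SE 0.20, limma adjusted p = 6.26e-10) and in +Wnt (1.27, SE 0.20, limma adjusted p = 5.69e-05), and again in +Fgf to Day 15 (1.94, SE 0.20, limma adjusted p = 5.81e-07). At Day 15 it was 27.3-fold higher in +Fgf than in +Wnt (log2 difference 4.77, SE 0.20, limma adjusted p = 3.97e-12). The decline in +Wnt from Day 12 to Day 15 was not called (-0.40, limma adjusted p = 0.0947) except after quantile normalization (-1.13, adjusted p = 5.61e-05). Dll4 lies on mm10 chr2:119325784-119335962 on the plus strand, and an exon of Gm14207 on the opposite strand overlaps it.

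Because Dll4 also marks forming vessels, endothelial markers were read beside it. Of 9 such markers, between 6 and 8 were under 1 CPM in all 3 libraries of each group. The summed level of the list was 37.8 to 61.8 CPM at Day 10, 101 to 172 CPM in Day 12 +Fgf, 219 to 269 CPM in Day 15 +Fgf, 6.92 to 10.5 CPM in Day 12 +Wnt, with 22.9 to 29.3 CPM in Day 15 +Wnt. The defining endothelial genes Cdh5, Tie1, Emcn and Erg reached at most 0.409 CPM in any library. Of the 9, 4 passed the filter on low values: at Day 15 Kdr and Cldn5 (mean 2.28 against 0.981 CPM) were higher in +Fgf, and Pecam1 (0.519 against 3.52 CPM) and Tek (0.474 against 3.15 CPM) were higher in +Wnt. The receptor gene Kdr, which retinal progenitors also express, made up most of that sum in the +Fgf groups and was, like Dll4, highest there: its mean was 49.0 CPM at Day 10, 141 CPM in Day 12 +Fgf, 248 CPM in Day 15 +Fgf, 4.41 CPM in Day 12 +Wnt, with 18.3 CPM in Day 15 +Wnt. The part of vessel cells in the Dll4 level was not tested.

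Jag1, the Jagged-family ligand found in the ciliary margin and lens of the eye, had the largest difference of the 4 ligands between stimulations at Day 12. It measured 70.7, 83.4 and 71.9 CPM at Day 10, and 184, 195 and 249.7 CPM in Day 12 +Fgf. In Day 12 +Wnt it measured 22.8, 21.9 and 23.0 CPM. By Day 15 both stimulations were low, with 21.5, 19.6 and 20.5 CPM in +Fgf and 28.7, 31.2 and 27.4 CPM in +Wnt. Day 12 +Fgf was thus the highest group and Day 15 +Fgf the lowest, and no groups overlapped. Jag1 rose 2.76-fold from Day 10 to Day 12 in +Fgf (log2 difference 1.46, SE 0.094, limma adjusted p = 3.21e-09) and fell 3.30-fold in +Wnt (-1.72, SE 0.094, limma adjusted p = 5.37e-10). In +Fgf it then fell 10.0-fold to Day 15 (-3.32, SE 0.094, limma adjusted p = 4.91e-13), whereas in +Wnt it rose slightly (0.36, SE 0.094, limma adjusted p = 0.00279). Its difference between stimulations was 3.19 at Day 12 (limma adjusted p = 2.12e-13) and -0.50 at Day 15 (limma adjusted p = 0.000184). Jag1 lies on mm10 chr2:137081456-137116644 on the minus strand, with no exon of another gene over its own.

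Jag1 is also made by vascular smooth muscle, and markers of mural cells and smooth muscle were high in the same group. The sum of 9 such markers was 446 to 627 CPM in Day 12 +Fgf, 37.4 to 50.4 CPM at Day 10, 11.8 to 14.2 CPM in Day 12 +Wnt, 102 to 113 CPM in Day 15 +Fgf, with 63.2 to 77.0 CPM in Day 15 +Wnt. The contractile genes Tagln (273 to 393 CPM in Day 12 +Fgf) and Acta2 (156 to 218 CPM) made up most of it in Day 12 +Fgf, and between 4 and 6 of the 9 were under 1 CPM in all 3 libraries of a group. Of the 9, 6 passed the filter on low values. In Day 12 +Fgf 4 of these were higher and 0 lower than at Day 10, against 27.9% and 27.8% of all tested entries. Compared with Day 12 +Wnt, 5 were higher and 0 lower, against 26.3% and 25.2%. The pericyte markers Rgs5 and Kcnj8 stayed under 1 CPM in every library. The list also holds Pdgfrb, Cspg4, Abcc9, Des and Myh11, whose single levels are not given here. Whether mural or smooth muscle cells were present, and their part in the Jag1 level, was not tested.

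Dll1, the Delta-like ligand expressed by newborn neurons and their immediate precursors, measured 24.3, 30.8 and 33.1 CPM at Day 10 and 29.3, 27.4 and 19.3 CPM in Day 12 +Fgf. In Day 12 +Wnt it measured 65.0, 62.1 and 60.1 CPM. At Day 15 the order had turned, with 81.3, 72.8 and 79.3 CPM in +Fgf and 43.4, 53.2 and 52.5 CPM in +Wnt. Day 10 and Day 12 +Fgf overlapped, and the other groups stood apart in the order Day 15 +Fgf, Day 12 +Wnt, Day 15 +Wnt. Dll1 rose from Day 10 to Day 12 in +Wnt (log2 difference 1.09, SE 0.13, limma adjusted p = 3.03e-06). In +Fgf the difference was -0.22 (SE 0.13, limma adjusted p = 0.168), which passed the test once the RIN, a score of RNA integrity, entered the fit as a covariate (-0.56, adjusted p = 0.0109) or without Day 10 replicate 1 (-0.35, adjusted p = 0.0372). It then rose 3.09-fold to Day 15 in +Fgf (1.63, SE 0.13, limma adjusted p = 3.13e-08). The fall in +Wnt over the same days (-0.33, SE 0.13, limma adjusted p = 0.0359) was lost in 9 of 19 alternatives, among them edgeR on the recovered reads (adjusted p = 0.0525). Against +Wnt, Dll1 was 2.48-fold lower in +Fgf at Day 12 (-1.31, SE 0.13, limma adjusted p = 3.78e-07) and 1.57-fold higher at Day 15 (0.65, SE 0.13, limma adjusted p = 0.000379). It lies on mm10 chr17:15367354-15376872 on the minus strand, where an exon of A930024N18Rik on the opposite strand overlaps it.

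Dll3, a divergent Delta-like protein that acts within the cell that makes it and does not activate receptors on neighbours, had its groups in the same order as Dll1. It measured 4.50, 2.94 and 4.51 CPM at Day 10 and 3.93, 4.52 and 2.94 CPM in Day 12 +Fgf, which overlapped. In Day 12 +Wnt it reached 13.0, 11.8 and 11.5 CPM. The Day 15 libraries gave 27.3, 20.3 and 23.0 CPM for +Fgf, against 6.89, 7.53 and 10.9 CPM for +Wnt. Day 15 +Fgf was the highest group and lay above every other library. Dll3 rose from Day 10 to Day 12 in +Wnt (log2 difference 1.56, SE 0.19, limma adjusted p = 3.91e-06), whereas its difference in +Fgf was not called (-0.059, SE 0.19, limma adjusted p = 0.812). From Day 12 to Day 15 it rose 5.85-fold in +Fgf (2.55, SE 0.19, limma adjusted p = 1.42e-08). The fall in +Wnt (-0.53, SE 0.19, limma adjusted p = 0.0234) was lost without Day 12 +Wnt replicate 1, Day 15 +Wnt replicate 1 or Day 15 +Wnt replicate 2. As for Dll1, the sign between stimulations turned, from -1.62 at Day 12 (SE 0.19, limma adjusted p = 2.76e-06) to 1.46 at Day 15 (SE 0.19, limma adjusted p = 4.38e-06). Dll3 lies on mm10 chr7:28293553-28302238 on the minus strand, with no exon of another gene over its own.

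**Figure D2:**
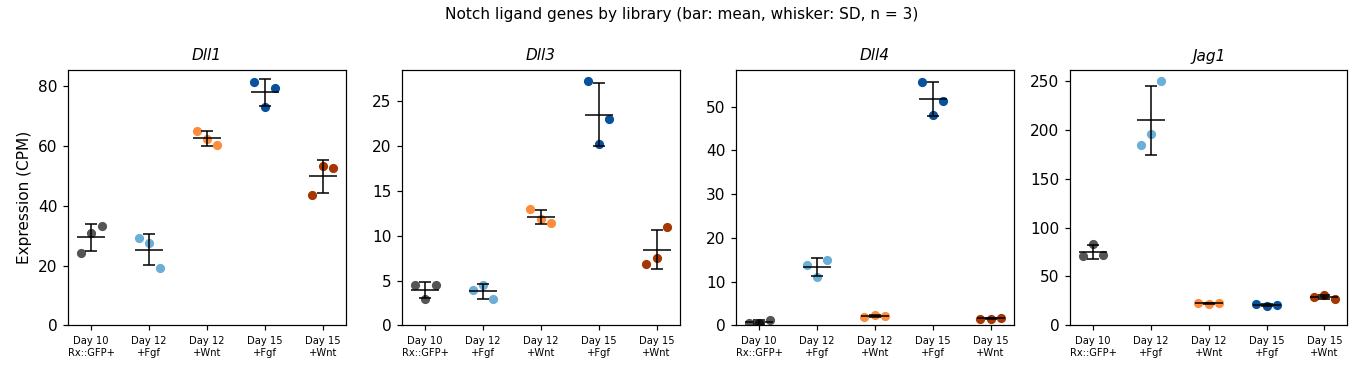
Expression of Dll1, Dll3, Dll4 and Jag1 in CPM (linear y axis from 0, scaled per gene) in the 3 libraries of each group (points), with the mean (bar) and SD (whisker). Jag1 peaks in Day 12 +Fgf with a mean of 209.6 CPM, while Dll1, Dll3 and Dll4 are highest in Day 15 +Fgf, with means of 77.8, 23.5 and 51.7 CPM.

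Among the receptors, Notch1, the main receptor of neural progenitors, rose at both steps in +Fgf, while neither step in +Wnt passed the test. It measured 41.4, 49.3 and 49.0 CPM at Day 10, 81.3, 79.6 and 87.5 CPM in Day 12 +Fgf, and 224, 191 and 164 CPM in Day 15 +Fgf. The +Wnt libraries gave 54.5, 38.7 and 47.7 CPM on Day 12 and 47.5, 47.0 and 47.5 CPM on Day 15. All +Fgf libraries lay above all others, whereas Day 10 and both +Wnt groups overlapped. Notch1 rose 1.78-fold from Day 10 to Day 12 in +Fgf (log2 difference 0.83, SE 0.11, limma adjusted p = 1.16e-05) and a further 2.31-fold to Day 15 (1.21, SE 0.11, limma adjusted p = 1.39e-07). In +Wnt the difference from Day 10 to Day 12 was 0.0044, with a 95% interval of -0.23 to 0.24, and from Day 12 to Day 15 it was 0.024, with an interval of -0.21 to 0.26. At Day 15 Notch1 was 4.03-fold higher in +Fgf than in +Wnt (2.01, SE 0.11, limma adjusted p = 1.06e-10), after 1.77-fold at Day 12 (0.83, SE 0.11, limma adjusted p = 1.08e-05). Notch1 lies on mm10 chr2:26457903-26516663 on the minus strand, and exons of 0610009E02Rik and Gm13568 on the opposite strand overlap it. The libraries were stranded, but whether the counting used strand is not stated in the sources used here.

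Notch2, a receptor known from the ciliary body, the epithelium at the rim of the optic cup, was lowest where Notch1 was highest. It measured 69.1, 78.0 and 69.0 CPM at Day 10, and 60.4, 59.5 and 63.1 CPM in Day 12 +Fgf. It then reached 35.5, 36.9 and 35.3 CPM in Day 15 +Fgf. In +Wnt it measured 82.9, 72.9 and 85.4 CPM on Day 12 and 95.7, 91.3 and 84.5 CPM on Day 15. Day 15 +Fgf was the lowest group, followed without overlap by Day 12 +Fgf, while Day 10, Day 12 +Wnt and Day 15 +Wnt each overlapped the next. Notch2 fell slightly from Day 10 to Day 12 in +Fgf (log2 difference -0.24, SE 0.067, limma adjusted p = 0.00659), a call that was lost with RIN as a covariate (adjusted p = 0.0921). It fell 1.69-fold from there to Day 15 (-0.76, SE 0.067, limma adjusted p = 7.24e-08). In +Wnt its difference from Day 10 was 0.16 at Day 12 (SE 0.067, limma adjusted p = 0.0521), which passed the test in 5 of 19 alternatives (lowest adjusted p = 0.00593), and from Day 12 to Day 15 it rose by 0.17 (SE 0.067, limma adjusted p = 0.031), a call that was lost without Day 12 +Wnt replicate 2, Day 15 +Wnt replicate 1 or Day 15 +Wnt replicate 2. At Day 15 Notch2 was 2.51-fold lower in +Fgf than in +Wnt (-1.33, SE 0.067, limma adjusted p = 2.76e-11). It lies on mm10 chr3:98013527-98150361 on the plus strand, and an exon of Gm42820 on the same strand overlaps it. How reads on that exon were assigned is not stated in the sources used here.

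Notch3, best known as the receptor of vascular smooth muscle and also present in neural progenitors, was the 1 receptor whose difference between stimulations at Day 15 did not pass the test. It measured 114, 100.5 and 98.3 CPM at Day 10, 152, 156 and 155 CPM in Day 12 +Fgf, with 108, 95.3 and 92.7 CPM in Day 15 +Fgf. The +Wnt values were 113, 96.3 and 106 CPM on Day 12 and 99.9, 90.2 and 93.7 CPM on Day 15. Day 12 +Fgf stood above all other libraries, and each of the other 4 groups overlapped its neighbour in the order of means. Notch3 rose 1.48-fold from Day 10 to Day 12 in +Fgf (log2 difference 0.57, SE 0.071, limma adjusted p = 4.73e-06) and fell 1.57-fold from there to Day 15 (-0.65, SE 0.071, limma adjusted p = 8.36e-07). At Day 15 the difference between +Fgf and +Wnt was 0.059, with a 95% interval of -0.090 to 0.21 (limma adjusted p = 0.469). Notch3 and Jag1 were both highest in Day 12 +Fgf, the group in which the contractile genes Acta2 and Tagln were also highest. Which cells expressed these genes, and any part of smooth muscle cells in the Notch3 level, was not tested either. Notch3 lies on mm10 chr17:32120820-32166852 on the minus strand, where an exon of Gm17276 on the opposite strand overlaps it.

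**Figure D3:**
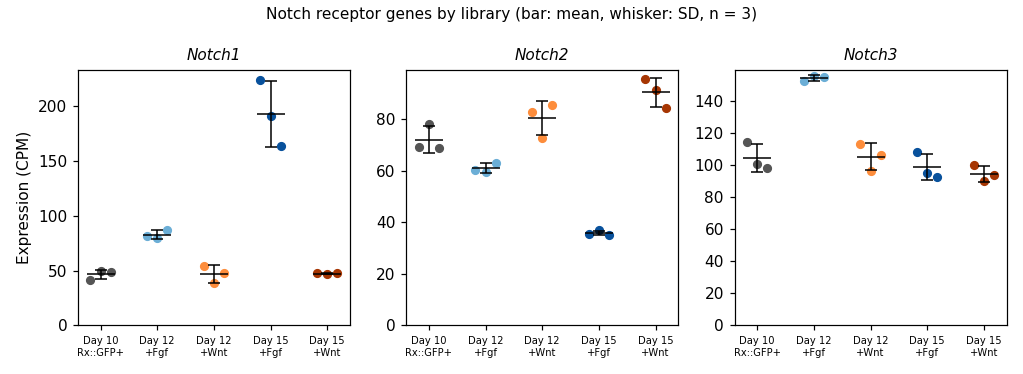
Expression of Notch1, Notch2 and Notch3 in CPM (linear y axis from 0, scaled per gene) in the 3 libraries of each group (points), with the mean (bar) and SD (whisker). In Day 15 +Fgf the mean of Notch1 is the highest of its 5 groups at 193 CPM and that of Notch2 the lowest at 35.9 CPM.

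Hes5 is a Notch target that is often read as a measure of pathway activity in neural progenitors. The 250 bases before its start are shown because they hold matches to the short sequence TGGGAA, the core of the sites that RBPJ binds. The stretch is mm10 chr4:154960673-154960922 on the plus strand (RefSeq, build GRCm38.p6), written 5′ to 3′, with the matches on either strand (TGGGAA or TTCCCA) in capitals.
Hes5 upstream: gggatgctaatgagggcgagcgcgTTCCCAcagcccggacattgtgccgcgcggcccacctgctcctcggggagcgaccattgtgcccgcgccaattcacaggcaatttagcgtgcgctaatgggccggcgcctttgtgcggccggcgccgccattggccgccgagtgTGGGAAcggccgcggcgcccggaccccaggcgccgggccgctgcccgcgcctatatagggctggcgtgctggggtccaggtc
The matches begin 226 bases upstream on the minus strand and 82 bases upstream on the plus strand, do not overlap, and lie in a stretch of 71.6% G and C. Of the 10 genes, 8 had promoter windows in the RefSeq table (9 windows, with 2 for Dll1), and Hes5 was the 1 gene with a match, where 21.59% of 32851 windows of the same length held at least 1. Hes1 and Hey1 had no entry. A match is a run of letters and not a measured binding site, and the absence of these letters from the other windows says nothing of regulation elsewhere.

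Hes5 rose in both stimulations and most in Day 15 +Fgf. It measured 11.9, 9.63 and 13.9 CPM at Day 10, 20.8, 27.3 and 21.9 CPM in Day 12 +Fgf, with 176, 148 and 167 CPM in Day 15 +Fgf. The +Wnt libraries held 45.5, 49.6 and 42.1 CPM on Day 12 and 35.3, 38.3 and 38.7 CPM on Day 15. No groups overlapped, and their order was Day 15 +Fgf, Day 12 +Wnt, Day 15 +Wnt, Day 12 +Fgf and Day 10. From Day 10 to Day 12 Hes5 rose 1.96-fold in +Fgf (log2 difference 0.97, SE 0.12, limma adjusted p = 3.78e-06) and 3.84-fold in +Wnt (1.94, SE 0.12, limma adjusted p = 1.45e-09). From Day 12 to Day 15 it rose 6.98-fold in +Fgf (2.80, SE 0.12, limma adjusted p = 2.17e-11). The small fall in +Wnt (-0.29, SE 0.12, limma adjusted p = 0.0415) was lost in 10 of 19 alternatives, among them edgeR (adjusted p = 0.0594) and the omission of any 1 of the 6 +Wnt libraries except Day 12 +Wnt replicate 3. Like Dll1 and Dll3, Hes5 was lower in +Fgf than in +Wnt at Day 12 (-0.97, SE 0.12, limma adjusted p = 3.2e-06) and higher at Day 15 (2.12, SE 0.12, limma adjusted p = 1.03e-10). It lies on mm10 chr4:154960923-154962371 on the plus strand, and an exon of Gm20421 on the opposite strand overlaps it.

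Hes1, a repressor that neural progenitors and many other cells express, fell where Hes5 rose in Day 12 +Wnt. It measured 88.4, 93.8 and 90.2 CPM at Day 10, 153, 133 and 165 CPM in Day 12 +Fgf, with 115, 99.2 and 100.0 CPM in Day 15 +Fgf. In +Wnt it measured 56.9, 57.4 and 49.3 CPM on Day 12 and 24.8, 22.5 and 28.9 CPM on Day 15. The groups did not overlap, with both +Fgf groups above Day 10 and both +Wnt groups below it. Hes1 rose 1.65-fold from Day 10 to Day 12 in +Fgf (log2 difference 0.72, SE 0.092, limma adjusted p = 6.37e-06) and fell 1.67-fold in +Wnt (-0.74, SE 0.092, limma adjusted p = 4.01e-06). From Day 12 to Day 15 it fell 2.14-fold in +Wnt (-1.10, SE 0.092, limma adjusted p = 2.15e-08) and 1.43-fold in +Fgf (-0.52, SE 0.092, limma adjusted p = 0.000145). The call in +Fgf was lost with RIN as a covariate (-0.54, adjusted p = 0.0508), RIN being lower in Day 15 +Fgf than in Day 12 +Fgf. Against +Wnt, Hes1 was 2.75-fold higher in +Fgf at Day 12 (1.46, SE 0.092, limma adjusted p = 1.18e-09) and 4.10-fold higher at Day 15 (2.04, SE 0.092, limma adjusted p = 7.67e-12). Hes1 lies on mm10 chr16:30064384-30067796 on the plus strand, with no exon of another gene over its own.

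Hey1, a repressor related to the Hes proteins and a target of Notch in many tissues, rose at each step. It measured 12.9, 12.7 and 14.3 CPM at Day 10, then 31.7, 31.5 and 29.4 CPM in Day 12 +Fgf, with 23.7, 26.9 and 25.0 CPM in Day 12 +Wnt. On Day 15 it measured 59.2, 47.4 and 53.8 CPM in +Fgf and 34.1, 36.6 and 43.8 CPM in +Wnt. No groups overlapped. It was the only one of the 10 genes to rise in all 4 comparisons over time: 2.30-fold from Day 10 to Day 12 in +Fgf (limma adjusted p = 3.98e-08) and 1.88-fold in +Wnt (limma adjusted p = 6.47e-07), then 1.72-fold to Day 15 in +Fgf (limma adjusted p = 3.28e-06) and 1.501-fold in +Wnt (limma adjusted p = 4.38e-05). It was higher in +Fgf than in +Wnt by 0.29 at Day 12 (SE 0.096, limma adjusted p = 0.0188) and by 0.48 at Day 15 (SE 0.096, limma adjusted p = 0.000278). The difference at Day 12 was lost without Day 12 +Fgf replicate 1, Day 12 +Fgf replicate 2 or Day 12 +Wnt replicate 1. Hey1 lies on mm10 chr3:8663359-8667256 on the minus strand, with no exon of another gene over its own.

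**Figure D4:**
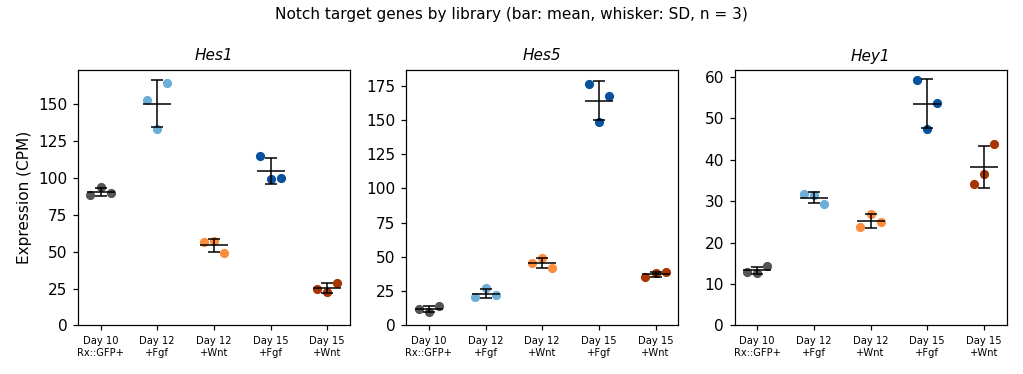
Expression of Hes1, Hes5 and Hey1 in CPM (linear y axis from 0, scaled per gene) in the 3 libraries of each group (points), with the mean (bar) and SD (whisker). Mean Hes1 falls from 90.8 CPM at Day 10 to 25.4 CPM in Day 15 +Wnt, while mean Hes5 is higher in every other group than at Day 10 (11.8 CPM) and reaches 164 CPM in Day 15 +Fgf.

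To compare genes with each other, CPM was divided by the length of the transcript in kilobases (CPM per kb), and shares and ratios were taken within each library, which removes the scaling between libraries. These shares and ratios are given as descriptions, without a test. Among the 4 ligands, Jag1 made up 57.5% ± 3.82 (SD, n = 3) of the summed CPM per kb at Day 10 and 75.2% ± 5.09 in Day 12 +Fgf. In Day 12 +Wnt its share was 15.1% ± 0.668 and in Day 15 +Fgf 7.61% ± 0.229. The leading ligand was therefore Jag1 at Day 10 and in Day 12 +Fgf, and Dll1 in the other 3 groups, with 65.3% ± 0.398 in Day 12 +Wnt, 45.2% ± 1.17 in Day 15 +Fgf and 61.0% ± 1.49 in Day 15 +Wnt. Dll4 reached 28.7% ± 0.253 in Day 15 +Fgf and at most 7.99% in any library of the other groups.

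Among the 3 receptors, Notch3 had the largest share in 4 of the 5 groups, from 46.4% ± 1.11 in Day 15 +Wnt to 57.0% ± 1.05 in Day 12 +Fgf. In Day 15 +Fgf the largest was Notch1, with 56.2% ± 2.35 against 34.2% ± 1.44 for Notch3 and 9.56% ± 1.083 for Notch2. The ratio of Notch1 to Notch2 per kb was 5.95 ± 0.943 in Day 15 +Fgf, 1.501 ± 0.0285 in Day 12 +Fgf, and between 0.549 and 0.786 in all 9 other libraries. These shares and ratios depend on which transcript is counted: with the length of all annotated exons, the share of Notch1 in Day 15 +Fgf was 46.4%, still the largest. The ratio of Notch1 to Notch2 was then 4.07 in Day 15 +Fgf and 1.03 in Day 12 +Fgf. How far Notch1 exceeded Notch2 in Day 12 +Fgf thus depends on the length used.

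The ratio of Hes5 to Hes1 per kb was 0.150 ± 0.0299 at Day 10 and 0.182 ± 0.0468 in Day 12 +Fgf, where the libraries overlapped. It was 0.968 ± 0.0391 in Day 12 +Wnt, 1.81 ± 0.108 in Day 15 +Fgf and 1.72 ± 0.216 in Day 15 +Wnt. Both Day 15 groups thus overlapped in this ratio, although mean Hes5 was 164 CPM in +Fgf against 37.4 CPM in +Wnt, and mean Hes1 105 CPM against 25.4 CPM. With the length of all annotated exons, the ratio in Day 12 +Wnt was 1.25, so which of both genes was higher there depends on the length used.

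**Figure D5:**
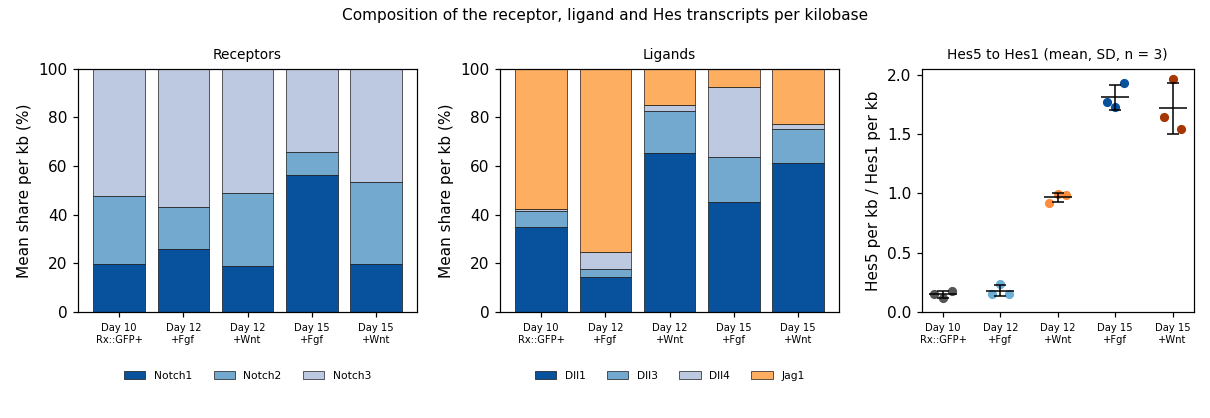
Mean share of each receptor (left) and of each ligand (middle) in the summed CPM per kb of its class, in percent, and the ratio of Hes5 to Hes1 per kb in each library (right, points with mean and SD, linear axis from 0). Jag1 holds 75.2% of the ligand signal in Day 12 +Fgf and 7.61% in Day 15 +Fgf, and Notch1 holds 56.2% of the receptor signal in Day 15 +Fgf alone.

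Proneural factors, several of which are known to be repressed by Hes proteins and to switch on Delta-like ligands, were read beside the pathway. The summed level of 7 proneural factors was 20.3 to 27.9 CPM at Day 10, 76.6 to 86.6 CPM in Day 12 +Fgf, with 77.5 to 90.8 CPM in Day 12 +Wnt. On Day 15 it was 607 to 699 CPM in +Fgf and 92.7 to 109 CPM in +Wnt. All 7 rose from Day 12 to Day 15 in +Fgf, where 27.2% of all tested entries rose. All 7 were higher in +Fgf than in +Wnt at Day 15, against 38.0% of all entries. Neurog2, which specifies early retinal neurons, rose from 37.6 ± 5.21 to 199 ± 7.699 CPM (SD, n = 3) in +Fgf. All 10 postmitotic neuron markers rose from Day 12 to Day 15 in +Fgf, against 27.2% of all entries, as did Dll1, Dll3 and Dll4. In +Wnt 7 of the 10 markers rose and 1 fell, against 32.5% and 35.5% of all entries. Over these days in +Wnt, Dll1 and Dll3 fell and Dll4 was not called (log2 differences -0.33, -0.53 and -0.40). The calls of Dll1 and Dll3 were lost in some alternatives, as given above. Neither the part of neurons in the ligand levels nor whether these markers stood for neurons alone in +Wnt was tested.

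Beyond the 10 genes, 46 other genes of the pathway were listed by role, and 44 passed the filter (Hes3 and Hes7 did not). From Day 12 to Day 15 in +Fgf, 23 of the 44 rose and 6 fell, against 27.2% and 29.9% of all entries, with a median log2 difference of 0.21. In +Wnt over the same days 14 rose and 16 fell, against 32.5% and 35.5%, with a median of 0.0030. At Day 15, 25 were higher in +Fgf and 7 were higher in +Wnt, against 38.0% and 30.6%, with a median of 0.18. From Day 10 to Day 12, 18 rose and 9 fell in +Fgf, against 27.9% and 27.8%. In +Wnt 16 rose and 8 fell, against 30.6% and 29.6%. Between stimulations at Day 12, 13 were higher in +Fgf and 11 lower, against 26.3% and 25.2%. The counts from Day 12 to Day 15 in +Wnt and between stimulations at Day 12 were near the shares of all entries.

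Among the enzymes that modify receptors and ligands, the glycosyltransferase gene Mfng, whose product alters which ligands a Notch receptor responds to, was called in all 6 comparisons. It measured 8.38, 5.21 and 10.7 CPM at Day 10, 18.1, 17.8 and 19.8 CPM in Day 12 +Fgf, with 77.6, 65.2 and 68.7 CPM in Day 15 +Fgf. In +Wnt it measured 32.8, 33.0 and 35.8 CPM on Day 12 and 20.8, 26.0 and 23.5 CPM on Day 15. Its groups did not overlap and stood in the same order as those of Hes5. Mfng rose from Day 12 to Day 15 in +Fgf by 1.91 (SE 0.17, limma adjusted p = 7.89e-08). Of the 9 genes of receptor cleavage, Aph1b, a subunit of gamma-secretase, rose in +Wnt from 10.8 ± 0.380 CPM at Day 10 to 28.0 ± 0.590 CPM on Day 12 and 58.7 ± 4.61 CPM on Day 15 (limma adjusted p = 4.19e-10 and 1.67e-09). Its +Fgf libraries were also above those of Day 10, at 17.0 ± 0.835 CPM on Day 12 and 25.4 ± 0.964 CPM on Day 15.

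Among inhibitors and turnover factors, 7 of 9 were higher in +Fgf than in +Wnt at Day 15 and 1 was lower. Of all tested entries, 38.0% were higher and 30.6% lower in this comparison. Dtx4, of the Deltex family that regulates Notch turnover, measured 276 ± 10.4 CPM in Day 15 +Fgf against 73.4 ± 3.91 CPM for Day 15 +Wnt (log2 difference 1.91, SE 0.066, limma adjusted p = 3.7e-13). Dtx1 rose from 14.1 ± 1.22 CPM at Day 10 to 40.3 ± 8.23 CPM in Day 12 +Fgf (1.47, SE 0.12, limma adjusted p = 3.74e-08), while it measured 14.5 ± 0.843 CPM in Day 12 +Wnt. It rose later in +Wnt, to 32.5 ± 1.76 CPM on Day 15 (1.15, SE 0.12, limma adjusted p = 2.34e-07), against 81.1 ± 7.72 CPM in Day 15 +Fgf. Of the nuclear complex, Kat2b, an acetyltransferase that coactivates Notch targets, rose in +Fgf from 24.9 ± 3.08 to 55.3 ± 3.34 CPM between Day 12 and Day 15 (1.15, SE 0.098, limma adjusted p = 5.18e-08). The Notch target and feedback inhibitor Nrarp, named here after its values were seen, measured 39.9 ± 1.21 CPM at Day 10, 83.2 ± 2.101 CPM in Day 12 +Fgf, 103 ± 1.77 CPM in Day 15 +Fgf, 44.6 ± 3.202 CPM in Day 12 +Wnt, with 32.6 ± 1.64 CPM in Day 15 +Wnt. As for Notch1, both +Fgf groups were the highest, with Day 15 +Fgf first.

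Of the other Hes genes, Hes6, which promotes neurogenesis and opposes Hes1, rose 4.04-fold from Day 12 to Day 15 in +Fgf, from 81.1 ± 2.02 to 329 ± 14.4 CPM (log2 difference 2.02, SE 0.080, limma adjusted p = 1.18e-11). In +Wnt it measured 83.6 ± 1.41 and 80.8 ± 1.37 CPM on the same days. The atypical ligand Dlk1 went the other way and was highest in Day 15 +Wnt, at 55.0, 47.7 and 63.6 CPM, against 9.81, 7.90 and 10.4 CPM in Day 15 +Fgf (-2.53, SE 0.33, limma adjusted p = 3.04e-06). Its Day 12 +Fgf libraries were uneven, at 5.01, 17.97 and 5.88 CPM.

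The genes most like each of the 10 in their pattern were taken by Pearson's r of log2 values over the 15 libraries, among 11325 genes with a mean of at least 5 CPM. The libraries fall into 5 groups, so r mostly describes the differences between groups and is given as a description. Notch1 was closest to Gpr37 (r = 0.99), Ret (0.98) and Chn1 (0.97). Notch2 was closest to Mitf (0.97), the master regulator of pigment cells, which measured 183 ± 12.1 CPM in Day 15 +Wnt but 18.6 ± 0.922 CPM in Day 15 +Fgf. Notch3 was closest to Sorbs3 (0.96), the lowest best match among the receptors.

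Dll4 was closest to Rimklb, Pot1a and Atoh7 (0.99, 0.99 and 0.98). Atoh7, the proneural factor that retinal ganglion cells require, measured 102 ± 16.2 CPM in Day 15 +Fgf, 11.9 ± 1.73 CPM in Day 12 +Fgf and below 1 CPM in every other library. Jag1 was closest to Ets1 (0.99), and then to Ltbp1 and Thbs1 (both 0.97). Ets1, a transcription factor gene on the neural crest list used above, measured 31.0 ± 5.07 CPM in Day 12 +Fgf but 6.63 ± 0.931 CPM in Day 15 +Fgf. Dll1 and Dll3 shared Zfp120 among their 3 closest genes (0.97 and 0.95). Hes1 was closest to Dgkz (0.98), Hes5 to Jam2 (0.98), with Mfng also among its 3 closest (0.97), and Hey1 to Ccdc60 (0.98).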

How the data were processed

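RNA-Seq libraries of 15 mouse SFEBq tissue samples in 5 groups of 3 were used, grouped by their labels. Read pairs were aligned by the authors to mm10 (TopHat2 2.0.8b). Fragments per gene were estimated with Cuffdiff (Cufflinks 2.1.1) and normalized with edgeR 3.2.4, the versions being those of the submitters' processing notes. The deposited values, which the paper calls CPM, were treated as a normalized signal, and 100% of those above 0 came out as whole reads within 0.02 of a read, so counts were recovered from the deposited values. The strand setting and read filters are not given in the sources used here.

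Log2(value + 0.3) of the 13845 entries with at least 1 CPM in at least 3 libraries was fitted with limma 3.58.1 in R 4.3.3 (5 group means, trend, Benjamini-Hochberg adjustment within each comparison). Alternatives were edgeR 4.0.16 and DESeq2 1.42.0 on recovered reads and those named in the closing section. The procedure was tested on simulated data for Day 12 +Fgf against Day 10. Of 200 genes given a 2-fold change, 59.5% were recovered, and 2.46% of the calls were false. The simulation changed 200 of 13845 genes, whereas 7716 were called in the data. The adjustment is less strict where more genes change, so this recovery does not carry over to the data. A gene that did not pass the test may still have changed. The members and lists were chosen with earlier results of these data known. Besides the 10 genes, the text names the 3 largest differences among other pathway genes in each comparison, at no less than 5 CPM in the higher group, the 3 genes most like each member, and genes of marker lists beside a result. Some genes that the rule allows are left out. Positions and exon overlaps came from the GENCODE annotation of mm10, promoter sequences from RefSeq (GRCm38.p6), and levels per kb used the length of the RefSeq-matched transcript. The replicates are biological by the labels. Precision is set by 3 libraries per group.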

Additional observations from a re-analysis of the deposited data

Results flagged for a closer look

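For 9 of the 10 genes the change from Day 12 to Day 15 differed between +Fgf and +Wnt, tested as an interaction in the limma fit and given as the log2 change in +Fgf minus that in +Wnt. The largest were Jag1, at -3.68 (SE 0.13, limma adjusted p = 1.65e-11), Hes5, at 3.09 (SE 0.17, limma adjusted p = 9.44e-10), and Dll3, at 3.08 (SE 0.27, limma adjusted p = 1.69e-07). Jag1 fell in +Fgf and rose in +Wnt, whereas Hes5 and Dll3 rose in +Fgf and fell in +Wnt by differences whose calls depended on single libraries. Dll4 differed by 2.34 (SE 0.29, limma adjusted p = 5.91e-06), Dll1 by 1.96 (SE 0.19, limma adjusted p = 3.63e-07) and Notch1 by 1.18 (SE 0.16, limma adjusted p = 1.37e-05), each with the higher change in +Fgf. Hes1 differed by 0.58 (SE 0.13, limma adjusted p = 0.0016), as its fall was larger in +Wnt. Notch2, at -0.93 (SE 0.094, limma adjusted p = 6.49e-07), and Notch3, at -0.50 (SE 0.10, limma adjusted p = 0.000641), had the lower change in +Fgf.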

How the results depend on the processing

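Of the 70 differences tested (10 genes in 7 comparisons, the interaction included), 60 were called, and 52 of these kept direction and call in every alternative run. The alternatives were a pseudocount of 0.05 or 1, no filter or 10 CPM in 3 libraries, a covariate (RIN or PCR cycles), a fit with no mean-variance trend, scaling by median of ratios or by quantiles, a replicate block, only the libraries compared, edgeR, DESeq2 and leaving out each library. From Day 12 to Day 15 in +Wnt, leaving out 1 library gave 4 to 6 genes in place of 7. No called difference changed sign. Signs turned only for differences that were not called. With median-of-ratios scaling and with RIN, Notch1 between Day 10 and Day 12 +Wnt was -0.0065 and -0.0026, and leaving out libraries gave -0.11 to 0.14. Over the same ranges, Notch1 from Day 12 to Day 15 in +Wnt ran from -0.11 to 0.14, Notch3 between Day 10 and Day 12 +Wnt from -0.041 to 0.080 and Dll3 between Day 10 and Day 12 +Fgf from -0.25 to 0.10. Notch3 between +Fgf and +Wnt at Day 15 was -0.053 with quantile normalization, -0.022 with RIN and -0.0077 to 0.10 on leaving out libraries.

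With RIN as a covariate, entries called from Day 12 to Day 15 in +Fgf numbered 3591 in place of 7899 and those of the interaction 3842 in place of 6636. Other pathway genes called numbered 14 in place of 29, 15 in place of 24, and 21 in place of 32 between stimulations at Day 15. Of the 10 genes, 9 and 8 were called in place of 10 and 9, since Hes1 was lost from both (adjusted p = 0.0508 and 0.0654). Why was not tested. Over the 7 comparisons limma called 6636 to 9505 entries, edgeR 6236 to 9318 and DESeq2 5861 to 8962. The lengths of all annotated exons, an alternative chosen after seeing the data, kept the leading ligand and receptor of each group.

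Replicate numbers did not pair the libraries: deviations from group means of same-numbered libraries correlated at -0.25 to 0.24 (median -0.0080), and 6 of 15 libraries correlated best with their own number. The fit with a replicate block called 8, 7, 10, 7, 10, 9 and 9 genes in the 7 comparisons, as did the fit without it, but called Notch3 (adjusted p = 0.022) in place of Hes5 (adjusted p = 0.0558) from Day 12 to Day 15 in +Wnt.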

Other observations

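Another receptor and another ligand are named here after their values were seen. Notch4, a receptor known from endothelium, measured 6.21 ± 1.35 CPM (SD, n = 3) at Day 10, 6.96 ± 1.11 CPM in Day 12 +Fgf, with 6.64 ± 0.316 CPM in Day 15 +Fgf, and fell in +Wnt to 4.36 ± 0.452 CPM on Day 12 (limma adjusted p = 0.0285) and 2.21 ± 0.466 CPM on Day 15 (limma adjusted p = 0.000215). Jag2, the other Jagged ligand, ran opposite to Jag1 at Day 12. It fell from 10.8 ± 0.622 CPM at Day 10 to 7.42 ± 1.51 CPM in Day 12 +Fgf (limma adjusted p = 0.0011) and rose to 14.0 ± 1.18 CPM in Day 12 +Wnt (limma adjusted p = 0.0163). On Day 15 it had risen in both, to 15.3 ± 0.329 CPM in +Fgf and 21.5 ± 0.482 CPM in +Wnt (limma adjusted p = 1.73e-06 and 0.000265).

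The other Hey genes and Hes2 were named in the same way. Hey2 was lower in +Fgf than in +Wnt on both days, with 4.80 ± 0.653 against 10.3 ± 1.88 CPM on Day 12 (limma adjusted p = 6.53e-06) and 7.09 ± 0.203 against 14.9 ± 1.00 CPM on Day 15 (limma adjusted p = 4.16e-06). Heyl measured 5.13, 3.25 and 6.01 CPM in Day 12 +Fgf and below 1 CPM in all libraries of Day 10 and Day 12 +Wnt, and on Day 15 its means were 3.49 ± 0.469 CPM in +Fgf against 2.11 ± 0.304 CPM in +Wnt (limma adjusted p = 0.0473). Hes2 measured 3.98, 3.71 and 4.52 CPM in Day 15 +Fgf and below 0.2 CPM in every other library.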
